A study of Ascaridia galli and Trichostrongylus colubriformis with 4 samples.

Results

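Tubulin chains, dyneins, kinesins and intraflagellar transport products were followed in 2 gut nematodes sequenced whole, *Ascaridia galli* from chickens and *Trichostrongylus colubriformis* from sheep. Members were the unigenes (assembled transcripts) whose best protein hit was named for an alpha, beta or gamma tubulin chain, a dynein, a kinesin or intraflagellar transport, leaving out kinases. They came to 216 of 194608 unigenes, 184 of 150798 in *A. galli* and 32 of 43810 in *T. colubriformis*. Worms were taken from the gut of slaughtered hosts and kept in vitro in distilled water or in water in which the moss *Pottia lanceolata* had been macerated, and the study asks which transcripts differ between these treatments. Each worm gave 1 library per condition, 4 in all, so there are no replicates and no test between conditions could be made. The strain, sex and age of the worms, the number pooled in a library and the concentration and time of exposure behind the RNA were not stated in the labels.

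The file headers name condition A and condition B without tying either to the extract. Every ratio is therefore condition B over condition A, says nothing of which way the extract acts, and may run in opposite senses in the 2 worms. Ratios are log2 values of the deposited normalized counts plus a pseudocount of 1, with 95% intervals that cover counting error only. Counts are not divided by transcript length, so levels are compared between conditions and not between unigenes. In whole worms, fewer cells of a type and less RNA per cell cannot be told apart.

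Microtubules are built from pairs of alpha and beta tubulin, and gamma tubulin starts their growth at organizing centres. Dyneins walk toward the minus end of a microtubule and most kinesins toward the plus end, carrying cargo, moving chromosomes and, with the intraflagellar transport proteins, building cilia. In nematodes such as *Caenorhabditis elegans* the cilia are immotile endings of sensory neurons and the sperm crawls without a flagellum, while beta tubulin is the target of the benzimidazole drugs used against gut worms.

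Reads recovered over the listed unigenes of *A. galli* came to 87659967 in condition A and 69118994 in condition B. Those of *T. colubriformis* came to 91182265 and 91812201. These sums are the total counts used for scaling. They are not the full size of a library, since a transcript with no read in a condition is not listed. Members took 0.465% and 0.395% of the normalized counts of conditions A and B in *A. galli*, and 0.0337% and 0.0485% in *T. colubriformis*. Scaling to total counts in place of the deposited size factors raised ratios by up to about 0.38 in *A. galli* and 1.99 in *T. colubriformis*, and by less where counts were low, so small negative ratios can turn positive under it. The deposited scaling set the median log2 ratio of all unigenes to 0 in both worms. Its middle 50% ran from -0.998 to 1.64 in *A. galli* and from -3.75 to 3.07 in *T. colubriformis*. Of tissue markers, sperm, muscle, cuticle and yolk or eggshell products were listed in *A. galli*. In *T. colubriformis* no yolk or eggshell product was listed, with 4 muscle and 60 cuticle unigenes.

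In *A. galli*, most members had fewer counts in condition B. Of 184 unigenes, 137 had a negative log2 ratio, with a median of -0.56 and a middle 50% from -1.19 to 0.00. Most other unigenes with a hit and at least 100 counts were lower too. At that level 104 of 117 members were below 0, beside 21525 of 27996 unigenes with a hit. Under total counts the median was -0.18, and the number below 0 was 105. The median over all unigenes with a protein hit was -0.22, or 0.16 under total counts. A unigene was called when it differed at least 4-fold and its higher condition had at least 20 normalized counts, which 163 members did. Of these 17 were lower and 6 higher in condition B, where 9.76% of all unigenes with that minimum were at least 4-fold lower and 22.7% at least 4-fold higher. The 17 members are 10.4% of those with the minimum, a share near that of all unigenes, and the 6 members are 3.68%. Among unigenes with a protein hit, as all members have, the shares were 6.55% lower and 17.6% higher, so 10.4% lies above that share. Under total counts 7 members were at least 4-fold lower and 9 higher, where the shares of all unigenes were 5.74% and 29%. Those of unigenes with a hit were then 3.56% and 22.1%.

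The members' ratios varied with abundance. At 1000 normalized counts or more, the median of 44 members was -0.59, 42 of them below 0 and none past 4-fold, beside -0.69 over all unigenes with a hit at that level. At 100 to under 1000 counts, 73 members had a median of -0.89, beside -0.56 over unigenes with a hit. Of these members 11 were at least 4-fold lower, which is 15.1%, beside 12.1% of all unigenes and 7.51% of those with a hit at that level. Below 100 counts the 67 members were evenly divided, with 33 below and 33 above 0 and a median of 0.00, beside 0.73 over unigenes with a hit. Best hits in ascaridid worms made 148 of the members (median -0.63), and those in other nematodes 36 (median -0.34), beside -0.57 and 0.90 over all unigenes with such hits.

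**Figure D1:**
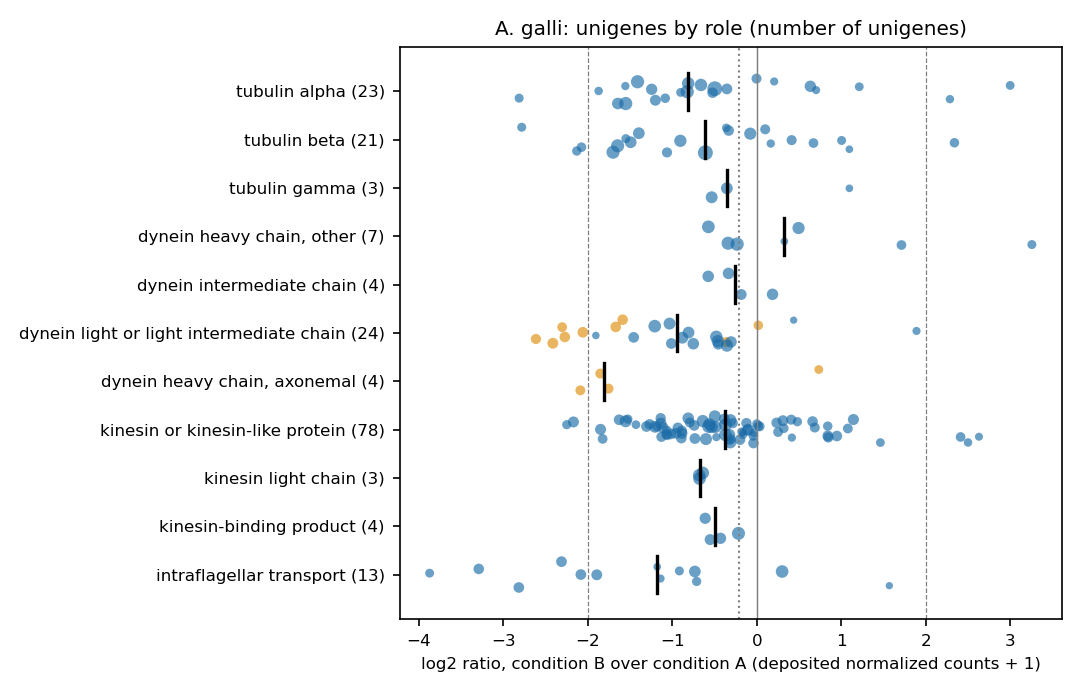
Log2 ratio (condition B over condition A, normalized counts + 1) of each *A. galli* unigene by role of its product; point size grows with abundance, the black bar is the median of the row, orange points are dynein products named axonemal, the dotted line is the median of all unigenes with a hit (-0.22) and dashed lines mark 4-fold. The axonemal dynein heavy chains (median -1.81) and the intraflagellar transport products (-1.18) lie farthest to the left, and the other dynein heavy chains have a median of 0.33; total counts would move the points right by up to about 0.38 and turn the medians of gamma tubulin, the intermediate chains and the kinesin-like proteins positive.

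Tubulin chains made up most of the members' counts. The 47 tubulin unigenes of *A. galli* summed to 313264 normalized counts in A and 198384 in B, 63.3% of the level in A, and their share of the table went from 0.352% to 0.291%. Their median log2 ratio was -0.61, or -0.23 under total counts, and 33 were below 0. Of the 40 with the minimum, 4 were at least 4-fold lower (10% of them, beside 9.76% of all unigenes) and 3 higher (7.5%, beside 22.7%). Among unigenes with a hit the shares were 6.55% and 17.6%. Under total counts 2 were lower and 3 higher.

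A beta chain and an alpha chain carried most of this sum. Beta tubulin unigene 51684 aligned over all 450 residues of the *A. galli* beta tubulin entry at 92.0% identity. It had 132205 normalized counts in A and 86664 in B, a log2 ratio of -0.61 (-0.63 to -0.59). Alpha tubulin unigene 167452, 95.7% identical to an *Ascaris suum* chain, had 118309 and 83793 counts, a ratio of -0.50 (-0.52 to -0.48). Both were lower in condition B, beside a median of -0.69 over all unigenes with a hit and at least 1000 counts.

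A pair of alpha and a pair of beta chains with lower identity had larger differences. Alpha unigenes 51899 and 122763 share a *Syphacia muris* hit, each aligned over residues 1 to 449 at 80.9% identity. Unigene 51899 had 9991 counts in A and 3405 in B (-1.55, -1.63 to -1.47), and 122763 had 9414 and 3536 (-1.41, -1.49 to -1.33). Since they share a hit, they may be copies or forms of 1 gene and are not independent, and their sum went from 19406 to 6942 (-1.48). Beta unigenes 92372 and 146846 form a like pair on an *Anisakis simplex* hit at 80.4% identity. Unigene 92372 had 8925 and 2741 counts (-1.70, -1.79 to -1.62), 146846 had 8666 and 2764 (-1.65), and the pair summed to 17591 and 5505 (-1.68). The counting intervals of these 4 unigenes do not overlap those of the 2 most abundant chains. With total counts 51899 was at -1.17 and 92372 at -1.32.

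Other tubulin forms had ratios between these values or apart from them. Alpha unigene 140924, matched at 92.6% identity, had 8903 counts in A and 5027 in B (-0.82, -0.90 to -0.75). Alpha unigenes 82205 and 221848, on the same *A. suum* hit as the most abundant chain but at 86.5% identity, had ratios of -0.81 and -0.66. Beta unigenes 25700 and 219004, both 95.3% identical to an *A. suum* chain, were at -1.49 and -1.40, so a high identity did not go with a small ratio in every case. Beta unigenes 18189 and 101521 share a *Toxocara canis* hit, the same residues 1 to 435 and an identity of 81.1%, yet 18189 had 2155 and 1150 counts (-0.91) and 101521 had 1435 and 1360 (-0.08, or 0.31 under total counts). The 15 tubulin unigenes that span at least 80% of their hit all had ratios below 0, from -1.70 to -0.08, of which beta unigenes 101521 and 58344 and gamma unigene 154750 turn positive under total counts.

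Tubulin unigenes higher in condition B were short or rare. Alpha unigene 24875, aligned to residues 352 to 437 of a *Globodera pallida* chain, had 377 counts in A and 586 in B (0.63, 0.37 to 0.91). The tubulins at least 4-fold higher were alpha-3 unigene 210297 (4.1 and 39.4 counts), beta unigene 131793 (14.2 and 75.9) and alpha unigene 112228 (4.1 and 23.7). Those at least 4-fold lower were alpha unigene 13208 and beta unigenes 80341, 28405 and 67356, from -2.81 to -2.08. None of these 7 reached 100 counts in either condition.

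Gamma tubulin, the nucleating chain, was somewhat lower in condition B, with a sign that in part depends on the scaling. Unigene 28169 had 1089 normalized counts in A and 752 in B, a ratio of -0.53 (-0.73 to -0.34). Unigene 154750, on the same *Dracunculus medinensis* hit at 78.0% identity, had 935 and 731 (-0.36, -0.56 to -0.16), which is 0.03 under total counts. A rare fragment named gamma-1 had 4.1 and 9.9 counts.

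**Figure D2:**
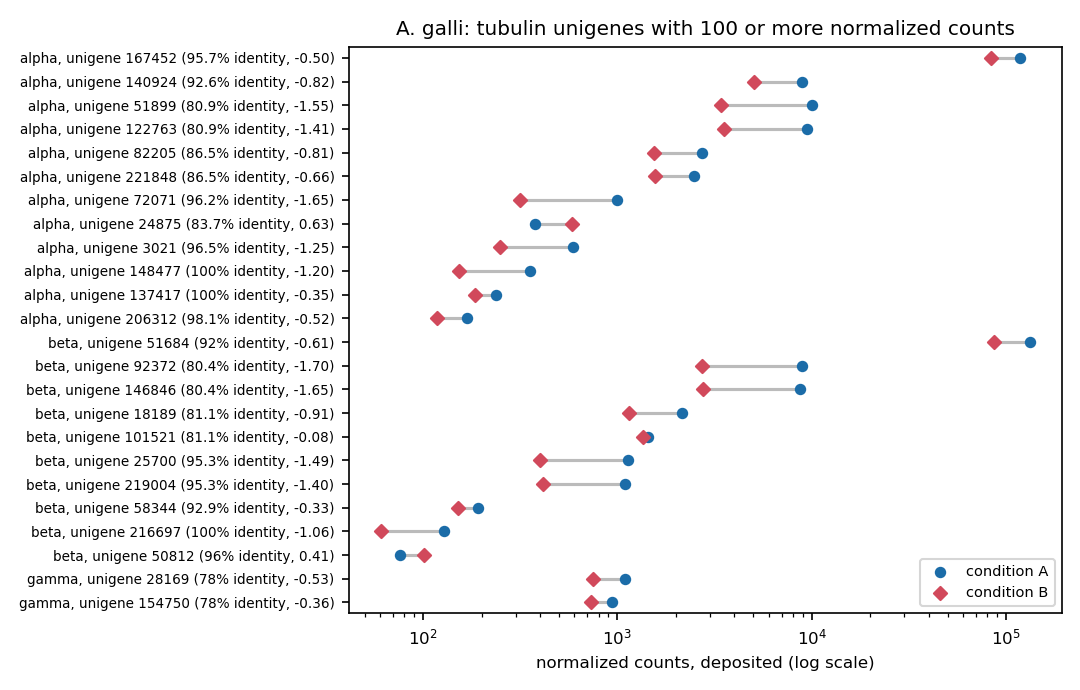
Normalized counts (log scale) in condition A (circles) and condition B (diamonds) of the *A. galli* tubulin unigenes with at least 100 counts, with the identity to the best hit and the log2 ratio of B over A in the label. The most abundant alpha and beta chains lie close together (-0.50 and -0.61), the 80.9% and 80.4% identical pairs are farther apart (-1.41 to -1.70), and alpha unigene 24875 and beta unigene 50812 alone are higher in condition B; small negative ratios can turn positive under total counts.

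Dyneins divided by name into axonemal and other products. The 39 dynein unigenes had a median log2 ratio of -0.57 (-0.19 under total counts) and summed to 39097 normalized counts in A and 27835 in B. The 26 not named axonemal had a median of -0.41 (-0.02 under total counts). Of the 22 of these with the minimum, none was at least 4-fold lower and 1 was higher. That is 4.55%, where the shares of all unigenes were 9.76% lower and 22.7% higher. The 13 named axonemal had a median of -1.85, or -1.48 under total counts, with 6 at least 4-fold lower and none higher. These 6 are 46.2% of them, beside 9.76% of all unigenes. Under total counts 2 of the 13 were at least 4-fold lower, where the share of all unigenes was 5.74%. They have 2 best hits between them, so they stand for few genes.

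Cytoplasmic dynein carries cargo toward the cell centre, and its heavy chain holds the motor. Heavy chain unigene 1292, aligned over residues 1 to 4575 of an *A. suum* chain at 87.9% identity, had 6087 normalized counts in A and 4808 in B (-0.34, -0.42 to -0.26), or 0.04 under total counts. Unigene 40361, a heavy chain-like product at 36.9% identity, had 7974 and 6783 counts (-0.23, -0.30 to -0.17), or 0.15 under total counts. Both ratios are small and depend on the scaling for their sign.

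Other pieces of the heavy chain did not share a direction. Unigene 155223, aligned to residues 1014 to 3379 of another *A. suum* heavy chain entry at 89.3% identity, was higher in condition B, with 1210 and 1704 counts (0.49, 0.34 to 0.65). Unigene 178851 on the same entry had 4.1 and 47.3 counts (3.26, 1.53 to 6.67), the only dynein at least 4-fold higher. Unigene 152191, on residues 3478 to 4702 of a *T. canis* entry, was lower, with 3874 and 2603 counts (-0.57), while 206270, on residues 349 to 596 of it, had 26.4 and 88.8 (1.71).

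The intermediate chain links the motor to dynactin. The 4 unigenes of intermediate chain 2 share a hit and had a median of -0.26, or 0.12 under total counts. Unigene 118392 had 679 and 456 counts (-0.58, -0.82 to -0.33), 2500 had 596 and 472 (-0.34, or 0.05 under total counts), and 194638 had 472 and 537 (0.19).

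Light intermediate chains bind cargo adaptors, and light chains join the complex as small subunits. Light intermediate chain unigene 69864 had 2360 normalized counts in A and 1691 in B (-0.48, -0.61 to -0.35), and the other 2 unigenes on its *A. suum* hit were at -0.46 and -0.35. The 3 unigenes on a *T. canis* hit for the same product ranged from -1.03 to -0.75. Roadblock light chain unigene 52194, complete at 96 residues, had 3842 and 1662 counts, a ratio of -1.21 (-1.33 to -1.09), or -0.83 under total counts. It was the lowest of the dynein unigenes with at least 1000 counts. Light chain unigenes 26094 and 132635 were at -1.46 and -1.01, 48578 at -0.88 and 6984 at -0.31 (0.08 under total counts).

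Axonemal dyneins drive the beat of motile cilia in other animals. The 28 kDa inner arm light chain had 9 unigenes, matched to a single *T. canis* protein at 57.6% to 67.2% identity. Summed, they had 1849 normalized counts in A and 528 in B, 28.5% of the level in A (-1.81, -2.01 to -1.61). Unigene 15396 had 388 and 72.0 counts (-2.42, -2.98 to -1.91), and 7 of the 9 had a counting interval below 0. Unigenes 179127 (-0.36, or 0.01 under total counts) and 124711 (0.02) stood apart from them.

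The axonemal heavy chain hit is itself an *A. suum* entry that the 4 unigenes matched at only 35.1% to 46.9% identity. Unigene 16139 had 126 normalized counts in A and 36.5 in B (-1.76, -2.62 to -1.02). Unigene 2862 had 124 and 33.5 (-1.85, -2.75 to -1.09), and 8325 had 117 and 26.6 (-2.09, -3.11 to -1.26). The remaining unigene, 182043, had 16.2 and 27.6 (0.73, -0.59 to 2.23). Other products of a motile axoneme (radial spoke, hydin, tektin, outer dense fibre and sperm flagellar names) were searched for and 0 were listed.

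Intraflagellar transport products did not share 1 ratio. The 13 unigenes had a median of -1.18 (-0.84 under total counts), and 5 of the 10 with the minimum were at least 4-fold lower and none higher, which is 50% beside 9.76% of all unigenes. Of these 5 unigenes 4 were IFT80 on 1 best hit and 1 was a rare osm-1 unigene, so they stand for few genes. With counts summed per best hit, 2 of 5 with the minimum were at least 4-fold lower. Under total counts 3 unigenes were at least 4-fold lower, where the share of all unigenes was 5.74%. Their sum went from 4911 to 3742 normalized counts (-0.39, or -0.01 under total counts), because the most abundant product was higher in condition B.

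IFT74 and IFT80 are parts of the train that enters the cilium, and IFT43 belongs to the complex that brings it back. IFT74 unigene 101697, aligned over 98.9% of an *A. suum* protein at 52.4% identity, had 2326 normalized counts in A and 2863 in B (0.30, 0.19 to 0.41). IFT43 unigene 146038 had 852 and 512 counts (-0.73, -0.96 to -0.51). These lay on opposite sides of 0 with intervals that do not overlap.

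IFT80 was lower in condition B in each of its 6 unigenes, which share a *T. canis* hit at 74.6% to 80.7% identity. Their sum went from 1630 to 330 counts, 20.3% of the level in A (-2.30, -2.55 to -2.06, or -1.92 under total counts). Unigene 71085 had 289 and 28.6 counts, a ratio of -3.29 (-4.23 to -2.56), and 98716 had 298 and 41.4 (-2.82). Unigene 31160 had 373 and 99.6 (-1.90), and the rare 186699 had 42.6 and 25.6 (-0.71). Of the train protein named osm-1 (IFT172), unigene 91549 had 42.6 and 1.97 counts (-3.87, -9.80 to -1.80), the last being 2 reads. Its other fragments had 10.1 and 3.9, and 2.0 and 7.9 counts. IFT20, with 34.5 and 17.8 counts in its larger unigene, had an interval that holds 0.

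Thus 26 *A. galli* unigenes bore an intraflagellar or axonemal name, 23 of them with the minimum. Of these 23, 11 were at least 4-fold lower, all on 4 best hits, where the share of all unigenes was 9.76%. They made 11 of the 17 members that were lower. Under total counts such names held 5 of the 7 members at least 4-fold lower, where the share of all unigenes was 5.74%. The list of other ciliary products held 29 unigenes whose median was -0.23 (0.15 under total counts). It was led by a B9 domain-containing protein 1 fragment with 15231 and 10647 counts (-0.52). Of the 26 with the minimum, 1 was lower and 2 higher. Sperm markers were lower in the same library. All but 4 of 159 major sperm protein unigenes, 155, were below 0, with a median of -1.77 (-1.38 under total counts). Of the 158 with the minimum, 52 were lower and 3 higher, where the shares of all unigenes were 9.76% and 22.7%. The major sperm protein sum went from 5077180 to 1523110 normalized counts. Tau-tubulin kinases, which the selection rule leaves out, counted 73 unigenes whose median was -1.54 (-1.16 under total counts). All 73 had the minimum, with 13 of them lower and none higher. The part of sperm RNA in the ratios of tubulins, dyneins and transport products was not tested.

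**Figure D3:**
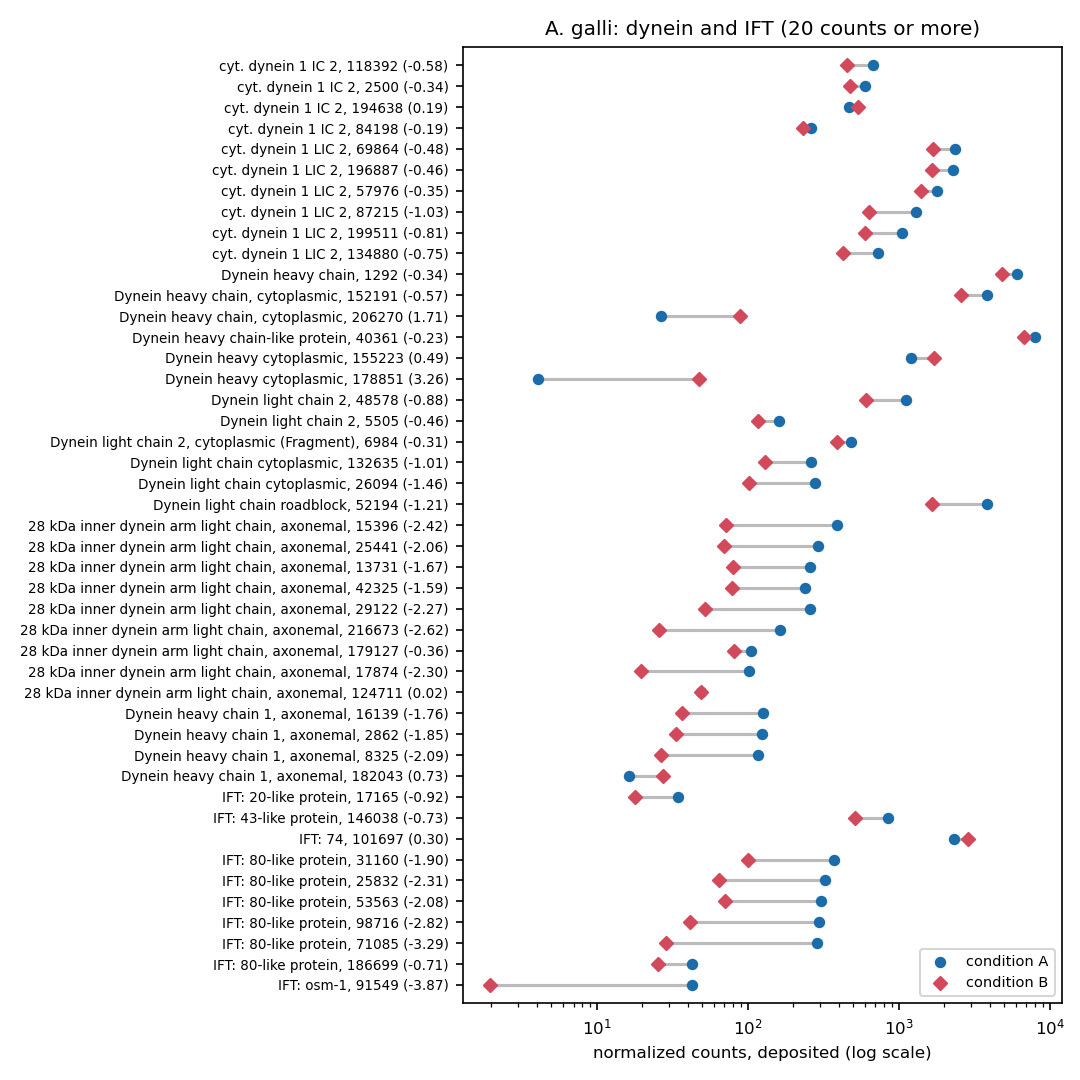
Normalized counts (log scale) in condition A (circles) and condition B (diamonds) of *A. galli* dynein and intraflagellar transport (IFT) unigenes with at least 20 counts, with the log2 ratio of B over A in the label; IC is intermediate and LIC light intermediate chain. The points of heavy chain unigenes 1292 (-0.34) and 40361 (-0.23) lie close together, those of heavy chain unigenes 178851 (3.26) and 206270 (1.71) lie apart with more counts in condition B, the 28 kDa inner arm, axonemal heavy chain and IFT80 unigenes are mostly well separated, and IFT74 (0.30) is higher in condition B; small negative ratios can turn positive under total counts.

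Kinesins were the largest family, and their median lay nearest 0. The 85 unigenes of *A. galli* had a median log2 ratio of -0.43 (-0.05 under total counts) and summed to 56080 normalized counts in A and 39439 in B. Of the 78 with the minimum, 2 were at least 4-fold lower and 2 higher, which is 2.56% in each direction, below the shares of all unigenes (9.76% and 22.7%).

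Kinesin-1 is the general cargo motor of neurons and muscle, and its light chain binds cargo. The 3 light chain unigenes, on 1 *A. suum* hit, had nearly the same ratio. Unigene 151172 had 3665 and 2290 counts (-0.68, -0.79 to -0.57), 100187 had 2535 and 1627 (-0.64), and 63944 had 2464 and 1535 (-0.68). Trafficking kinesin-binding protein 1, which ties mitochondria to the motor, had 5232 and 4501 counts (-0.22, or 0.17 under total counts). Of the kinesin-like products without a family name, unigene 61989 had 8353 and 5631 (-0.57, -0.64 to -0.50) and 86554 had 3634 and 2811 (-0.37, or 0.01 under total counts).

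Kinesin-2 carries the transport train along the cilium. Its KIF3A subunit, unigene 34237, had 250.5 normalized counts in A and 123 in B (-1.02, -1.49 to -0.57). The 3 unigenes of kinesin-associated protein 3, the cargo-binding subunit of the same motor, ran from -0.61 to -0.43 and summed to 1289 and 895 (-0.52). The ratio of KIF3A was thus nearer 0 than that of IFT80.

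Kinesins with roles in neurons, cell migration and endosomes had ratios on both sides of 0. For vab-8, which guides posterior migration of cells and axons in *C. elegans*, unigene 62094 had 1591 and 541 counts (-1.55, -1.76 to -1.36), and the 4 unigenes on its hit summed to -1.34 (-1.48 to -1.20). On a rarer *T. canis* hit for vab-8, 4 unigenes ran from -1.18 to 1.46. They summed to 110.5 and 86.9 counts (-0.34, -0.96 to 0.25). KIF13A, a motor of endosomes in mammals, had the lowest kinesin with at least 100 counts, unigene 26740, with 452 and 99.6 (-2.17, -2.65 to -1.74). Of the 9 KIF13A unigenes 7 were below 0, with a median of -1.07 (-0.69 under total counts). On the main hit unigene 209641 was at 0.85 and 28111 at -0.81, and the 6 unigenes of that hit summed to -0.90 (-1.06 to -0.75). The rarer KIF13A unigene 203350, on another *A. suum* hit, had 16.2 and 90.7 counts (2.41, 1.39 to 3.78) and was at least 4-fold higher. KIF21B, a motor that also slows microtubule growth in mammals, had 5 of its 7 unigenes below 0. Unigenes 89317 and 7178, which span nearly the whole main hit, were at -0.31 and -0.32 (both 0.07 under total counts). On the same hit, 204676 on residues 406 to 873 had 190 and 420 counts (1.14, 0.79 to 1.51). Another KIF21B hit held 1 unigene at -0.60 (-0.78 to -0.43, or -0.22 under total counts). Unigene 191770, on an *A. suum* kinesin-like protein with no family name, had 139 and 250 (0.84, 0.41 to 1.29). The unc-104 hit, the synaptic vesicle motor, summed to 94.3 and 141 counts (0.58, 0.03 to 1.15).

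Kinesins known from the spindle also had unigenes on both sides of 0. KIF11, which slides spindle poles apart, had 2 unigenes at -0.33 (0.06 under total counts) and -0.10 (0.28). KIF23, a motor of the dividing midzone, summed to -0.41 (-0.70 to -0.13) over 6 unigenes that ran from -2.25 to 0.69. The chromosome-associated kif4 had 2 unigenes at -0.73 and 0.31, each matched at about 26% identity.

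**Figure D4:**
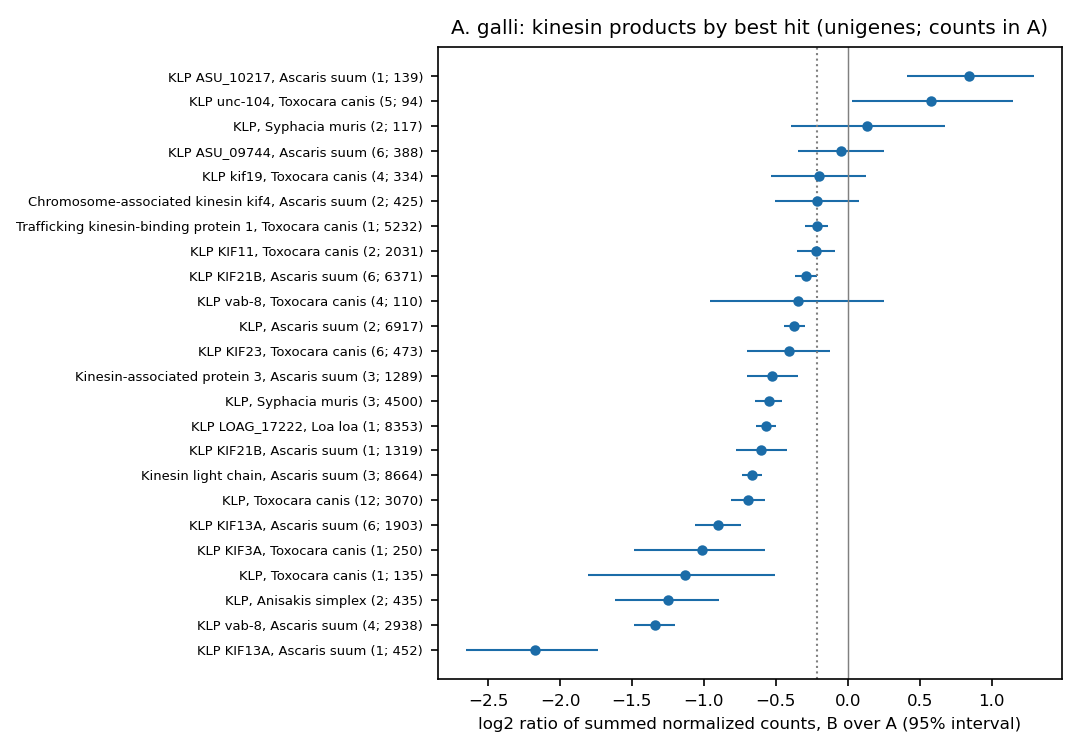
Log2 ratio (condition B over condition A) of normalized counts summed over the *A. galli* kinesin unigenes that share a best hit, for hits with at least 100 counts in the higher condition, with 95% counting intervals; labels give the number of unigenes and the counts in condition A, KLP stands for kinesin-like protein and the dotted line is the median of all unigenes with a hit (-0.22). A KIF13A hit (-2.17) and a vab-8 hit (-1.34) lie lowest, while another hit of each lies nearer 0 (-0.90 and -0.34), and the ASU_10217 product (0.84) lies highest; small negative ratios can turn positive under total counts.

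Many members are alternative or partial assemblies of the same product. The 184 unigenes have 90 best hits, of which 38 hold more than 1 unigene. At 6 of these hits, unigenes had counting intervals on opposite sides of 0, as at the KIF21B and KIF13A hits. How reads were divided among the unigenes of a hit was not tested.

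Partners of the microtubule system in *A. galli* mostly had medians near those of the cytoplasmic motors. Dynactin, the activator of dynein, had a median of -0.39 over 11 unigenes (-0.01 under total counts), with dynactin subunit 1 at 5505 and 3930 counts (-0.49). Products that fold tubulin had a median of -0.38 over 35 (0.00 under total counts), led by the delta subunit of the T-complex chaperonin at 36087 and 25496 (-0.50). Tubulin-modifying enzymes had -0.43 over 21, with tubulin-tyrosine ligase-like 12 at 4613 and 3063 (-0.59). Of the 19 with the minimum, 1 was at least 4-fold lower. Microtubule-binding and severing products had -0.61 over 19, with futsch at 10349 and 6084 (-0.77). Spindle and mitosis products had -0.45 over 39, with 1 higher among the 37 with the minimum, and the most abundant of them had 138009 and 87941 (-0.65). The gamma-tubulin complex was the exception, with a median of 0.19 over 8 and its main unigene at 1636 and 1562 (-0.07, -0.21 to 0.08). Among tissue markers, yolk and eggshell products had a median of -0.42 over 41 (4 lower, 3 higher), led by chondroitin proteoglycan 2 (2638 and 1539). Body wall muscle had -0.44 over 26 (3 lower), led by myosin-4 (178261 and 150161, -0.25), and cuticle 0.02 over 40 (2 lower, 2 higher), led by dpy-5 (240879 and 311874, 0.37). With the minimum these 3 marker lists held 36, 20 and 37 unigenes. For these lists and those of the partners, the shares of all unigenes were 9.76% lower and 22.7% higher.

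In *T. colubriformis* the 2 libraries differed far more, for members and for the table alike. Of 32 members, 29 had the minimum, and 7 of these (24.1%) were at least 4-fold lower and 14 (48.3%) higher in condition B. Of all unigenes with the minimum, 41.6% were at least 4-fold lower and 39.7% higher, so most unigenes were past 4-fold. The members' median was 1.46 (3.28 under total counts) while their sum went from 61478 to 22253 normalized counts (-1.47, or 0.52 under total counts). All 32 members had best hits in strongylid worms or *Caenorhabditis*. No hit was named for a dynein among the 22595 unigenes with a hit. A normalized count is worth unequal reads here, since 1 read equals 2 counts in A and 0.5 in B.

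The 11 tubulin unigenes summed to 32032 normalized counts in A and 6840 in B (-2.23, or -0.24 under total counts). Their median was -1.97 (0.02 under total counts). Of the 10 with the minimum, 4 were lower (40%, beside 41.6% of all unigenes) and 3 higher (30%, beside 39.7%), shares near those of all unigenes. Alpha unigene 34996, 94.2% identical to an *Angiostrongylus costaricensis* chain, had 14432 and 3684 counts (-1.97, -2.04 to -1.90), which is 0.02 under total counts. In reads it had 7216 and 7367.

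Most other tubulins of this worm were high in a single library. Alpha unigene 12486 had 13098 counts in A and 12.0 in B (-9.98, -11.05 to -9.29), and 9402 had 3732 and 2.0 (-10.28, -13.91 to -9.01). Unigene 92124, on the same hit as 12486 (residues 288 to 431 against 404 to 445, which overlap), had 24.0 and 363 counts (3.86, 2.78 to 5.37), the opposite direction. Alpha unigene 54764, 100% identical over residues 249 to 352 of its hit, had 248 and 2440 counts (3.29, 2.93 to 3.69). Beta unigene 2289 had 262 and 2.0 (-6.45, -10.11 to -5.12), and 84719 had 12.0 and 209 (4.01, 2.55 to 6.41).

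The tubulins that span at least 80% of a hit were rare in both libraries. Alpha unigene 37959 had 48.0 and 68.0 counts (0.49), and 29080, matched to the *Haemonchus contortus* chain at 94.7%, had 20.0 and 3.0 (-2.39). Beta unigene 25473 had 144 and 57.0 (-1.32, or 0.65 under total counts), and 23515 had 12.0 and 1.0. The unigenes with at least 1000 counts were thus partial matches.

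Kinesins of *T. colubriformis* had a median of 2.02 (3.84 under total counts) over 19 unigenes. Of the 18 with the minimum, 3 were lower (16.7%, beside 41.6% of all unigenes) and 10 higher (55.6%, beside 39.7%). The vab-8 unigene 24405 had 25794 normalized counts in A and 13.0 in B (-10.85, -11.86 to -10.18). Unigene 62993, a kinesin motor domain product, had 12.0 and 4585 (8.46, 7.03 to 10.86), and 69443 had 76.0 and 4175 (5.76, 5.13 to 6.51). These differ by more than counting error in opposite directions. On a shared *Oesophagostomum dentatum* hit, unigene 62069 (residues 175 to 312) had 906 and 3992 counts (2.14, 1.95 to 2.34), and 44273 (residues 78 to 170) had 2178 and 79.0 (-4.77, -5.14 to -4.44). Summed, that hit was at 0.40. Of intraflagellar transport, IFT52 had 4.0 and 34.0 counts (2.81, 0.51 to 8.43) and che-13 (IFT57) had 16.0 and 2.0 (-2.50, -6.47 to -0.20), both from few reads.

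**Figure D5:**
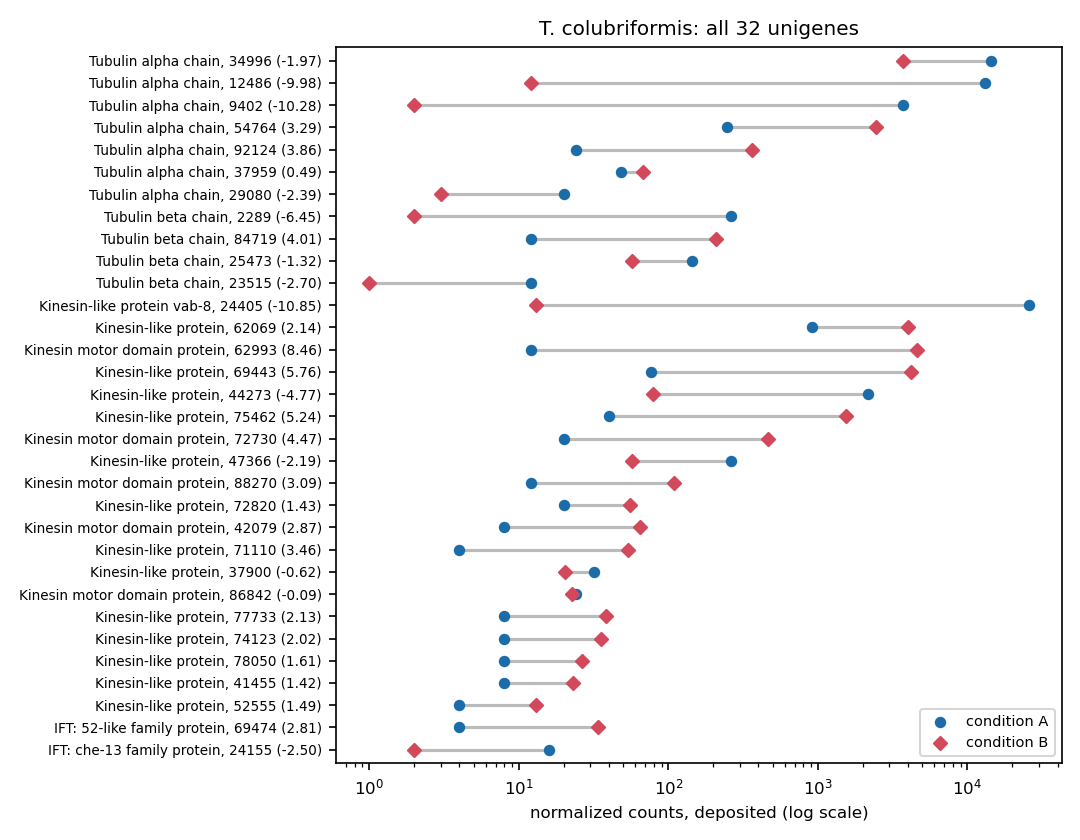
Normalized counts (log scale) in condition A (circles) and condition B (diamonds) of all 32 *T. colubriformis* members, with the log2 ratio of B over A in the label. Several abundant unigenes are near the floor in a single library, from vab-8 unigene 24405 (-10.85) to kinesin unigene 62993 (8.46); total counts would add up to about 1.99 to a ratio and turn 4 of them positive, alpha tubulin 34996 among them.

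Of the neighbouring products of *T. colubriformis*, 21 were tubulin-folding products (median -1.48, or 0.50 under total counts), led by a prefoldin subunit with 41382 and 1634 counts. Of the 19 with the minimum, 9 were lower and 6 higher. The counts of calls in these lists stand beside 41.6% of all unigenes lower and 39.7% higher, so many calls in both directions are common to the table. Tubulin-modifying enzymes had 4 lower and 6 higher among 11 (median 2.17), led by a tubulin-tyrosine ligase with 270 and 12320. The gamma-tubulin complex had 4 unigenes (median -3.12), its main one at 6844 and 104 counts (-6.03), and the single dynactin product, a p62 domain protein, had 3596 and 7.5. Major sperm protein had 25 unigenes (median 1.57), led by a unigene with 24386 and 19.0, with 5 lower and 11 higher among the 24 with the minimum. Cuticle products had 60 (median 0.26), with 20 lower and 22 higher among the 52 with the minimum. Muscle had 4 unigenes, with 2 higher among the 3 with the minimum, led by tropomyosin (76.0 and 790). The tau-tubulin kinase unigene had 4.0 and 977. A microtubule-associated protein (12.0 and 6.5), a Zw10 product of the spindle list (438 and 87.0) and a tubby-like product of the ciliary list (304 and 2.0) were the main unigenes of lists with 1 or 2 members.

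The authors' deposited table marked 8 *A. galli* members up, 19 down and 157 neutral, with a lowest p-value of 0.0517 and every adjusted p-value at 1. The authors' deposited table for *T. colubriformis* marked 14 up, 9 down and 9 neutral, with a lowest p-value of 0.4 and every adjusted p-value at 1. The shares of all unigenes marked up or down are not given here. These marks therefore do not set the members apart from the rest of either table.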

How the data were processed

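Poly(A) libraries of whole worms were deposited as 1 table per worm. Per the file headers, each deposited table gives normalized counts for both conditions (read counts over a size factor, recorded here under the general unit score because neither column could be assigned to a treatment), and the authors' fold (ratio) with its log2 value, p-value and adjusted p-value. The percent identity to the best protein hit is deposited as well. DESeq is named in the submitters' processing notes, with no version. For the build, aligner and assembler, nothing was stated. Every listed unigene has reads in both conditions. A stray line in the *A. galli* table was left out. Whole reads were recovered from the step of the deposited normalized counts (100% of values up to 200 within 0.1 read). Conditions could not be matched to extract or water and each has 1 library, so ratios are described without a test, and no count model was run on the recovered reads.

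Log2 ratios used a pseudocount of 1. Intervals are 95% Clopper-Pearson intervals on reads divided by 2, as most counts were even (63.5% to 75.2%), and PCR copies are not independent molecules. Medians cover all members, and calls need at least 20 normalized counts and a 4-fold ratio. Best hits sharing a protein are not independent. Python 3.11.15, numpy 2.4.6, pandas 2.3.3, scipy 1.17.1 and matplotlib 3.10.9 were used. The ratio steps were tested on simulated data. The members, the 13 neighbouring and marker lists and the settings were chosen with earlier results of these data known. By rule, the named unigenes were the 2 most abundant of each role and, per worm and family, up to 2 highest and 2 lowest ratios with at least 100 counts, ranked by the interval bound nearest 0, with 1 per product name. The most abundant unigene of each list was named as well. All other unigenes were named after their values were seen. Alternatives were total-count scaling, trimmed mean of M-values (30% and 5% trims), 5 as pseudocount, other minimums (none, 100), a 2-fold rule, the interval bound, 1 unigene per product name and hits in kin of the worm. Counts summed per best hit and alignments over at least 80% of the hit were added after seeing the data.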

Additional observations from a re-analysis of the deposited data

How the results depend on the processing

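The medians of the families were recomputed with another scaling, minimum, pseudocount or choice of unigenes. Under total-count scaling they moved in *A. galli* from -0.56 to -0.18 for all members, from -0.61 to -0.23 for tubulins, from -0.57 to -0.19 for dyneins and from -0.43 to -0.048 for kinesins. In *T. colubriformis* they moved to 3.28 for all members and 3.84 for kinesins, and the tubulin median reversed from -1.97 to 0.0199. With 1 unigene per product name, the kinesin median of *T. colubriformis* was 3.95. The shifts under total counts are the change of size factor itself, and medians with 1 unigene per product name rest on fewer unigenes. In the same setting the median of all its members was 0.0841 in place of 1.46, and that of its tubulins -4.21. With the trimmed mean of M-values these were 2.39 and -0.94. With a minimum of 100 the transport median of *A. galli* was -2.08 in place of -1.18, and the kinesin median of *T. colubriformis* 3.09 in place of 2.02. The 2 transport products of *T. colubriformis* went from 0.15 to 1.83 with total counts, 1.02 with the trimmed mean and 0.27 with a pseudocount of 5. The other medians moved by less than 1.5 times. Of the named unigenes, 5 of 30 in *A. galli* and 1 of 12 in *T. colubriformis* changed sign under total counts, and none under the trimmed mean of M-values or a pseudocount of 5.

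Counts of calls depended on the rule. The number at least 4-fold lower in *A. galli* ranged from 2 to 17 for all members (17 as reported), 0 to 4 for tubulins, 0 to 6 for dyneins, 0 to 2 for kinesins and 1 to 5 for transport products. The number at least 4-fold higher ranged from 0 to 9, 0 to 3, 0 to 3, 0 to 3 and stayed at 0. With a 2-fold rule 57, 17, 14, 20 and 6 were lower and 12, 5, 2, 5 and 0 higher. In *T. colubriformis* all members at least 4-fold lower ranged from 1 to 9 and those higher from 4 to 19, and with a 2-fold rule 9 and 17 were. Shares of all unigenes under a 2-fold rule are not given here for either worm. The 2-fold counts therefore do not set members apart from the rest of the table. The transport products of *T. colubriformis* had no value with a minimum of 100 or with alignments over 80% of the hit, and dyneins had no member there. No paired analysis was possible because each condition had 1 library and the columns carry no replicate number, so no library could be left out either. Unigenes with few reads are limited by counting error, and a transcript with no read in a condition is not listed.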
